A study of Mus musculus with 8 samples.

Results

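The collagen chain genes were taken as every counted gene whose symbol reads Col, a number, the letter a and a number, and 37 of the 12551 genes in the counts met that rule. The symbol alone decided which genes met the rule, and no measured value enters it. The rule itself was chosen with earlier results of these data known. By the structure of the proteins, 11 encode chains of fibrillar collagens, 7 chains of network-forming collagens, 7 chains of fibril-associated collagens with interrupted triple helices (FACIT), and 12 other chains, which include the beaded filament collagen VI, the membrane-spanning collagens and the collagens XV and XVIII of basement membrane zones. A further 7 collagen symbols in the class table had no row in the counts and were not analysed here.

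RNA was measured in whole tibialis anterior (TA) muscle, a fast-twitch muscle of the lower leg, from male mice that were 7 weeks old. There were 4 wild-type (WT) mice and 4 KL-/- mice, which are homozygous for a null allele of Klotho. Klotho encodes a membrane protein that is best known in the kidney, where it takes part in the hormonal control of phosphate. According to the methods the mice came from heterozygous breeders of mixed background. The allele is lost in every tissue, so that effects within muscle and effects of the altered circulation cannot be told apart, and the labels name no treatment for either group. The question of the comparison was how the muscle transcriptome differs when Klotho is missing.

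Collagens are mostly secreted proteins of 3 alpha chains wound into a triple helix, and they carry most of the tensile load of connective tissue. In skeletal muscle, fibrillar collagens I, III and V form the fibrils of the endomysium, perimysium and tendon and are made mainly by fibroblasts and fibro-adipogenic progenitors. Collagen IV forms the network of the basement membrane around myofibers and capillaries, collagen VI forms microfilaments at the border of the basement membrane, and FACIT collagens sit on the surface of fibrils.

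The libraries held 20860262 to 29273758 counts on genes, and values are given as CPM, counts scaled to the size of the library, on which scale 3 counts stood for 0.102 to 0.144. The edgeR TMM factors that entered these sizes were 1.025 to 1.054 in WT and 0.9501 to 0.9796 in KL-/- libraries. *Kl* is not among the counted genes, and the genotypes therefore rest on the labels. Muscle fiber markers summed to 135543 to 157389 CPM in WT and 167221 to 216152 CPM in KL-/- libraries. The labels give 7 libraries the same batch date and KL-/- replicate 3 a different date, which cannot be told apart from that mouse. The labels name total RNA, whereas the methods describe libraries of mRNA. Nothing in the sources used here pairs a KL-/- mouse with a WT mouse, and p-values measure the spread between these 8 muscles.

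Most collagen transcripts were lower on average in KL-/- muscle, and few of these differences passed the test. Of the 37 genes, 32 had a log2 fold change (KL-/- over WT) below 0, against 52.4% of all genes tested, and the median was −0.74, against −0.016 over all genes. At a false discovery rate (FDR) under 0.05 by edgeR's quasi-likelihood test with Benjamini-Hochberg adjustment over all genes, 1 collagen gene fell, *Col5a3*, where 6.67% of all genes were lower. In the same test 1 rose, *Col9a1*, where 7.35% of all genes were higher. The share of collagen genes called lower, 2.70%, rests on 1 gene, which is too few to set it apart from that background. An unadjusted p under 0.05 was reached by 21 genes in the lower direction, 56.8% of the collagen genes against 16.4% of all genes, and by 3 in the higher direction, against 15.8% of all genes. The number called lower depended on the test and on single mice. It was 7 with DESeq2 and 7 when libraries were scaled by their totals, where 9.11% and 17.0% of all genes were lower. With WT replicate 4 left out it was 10, where 5.51% of all genes were lower. With KL-/- replicate 2 left out it was 6, where 9.83% were. It was 0 when any of WT replicates 2 and 3 and KL-/- replicates 1, 3 and 4 was left out. In those fits 2.73% to 4.21% of all genes were lower. In the fit of the 7 libraries that share a batch date, without KL-/- replicate 3, 31 of the 37 fold changes were below 0, 9 genes reached an unadjusted p under 0.05 in the lower direction, and *Col9a1* was the only collagen gene past the FDR threshold. That fit called 2.82% of all genes lower, against 6.67% with all 8 libraries, and 53.5% of its called genes were higher. The share of all genes at that unadjusted p is not given for this fit. The log2 fold change of 19 of the 37 genes, among them neither *Col5a3* nor *Col9a1*, moved by over 1.5 times or turned sign when some library was left out.

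**Figure D1:**
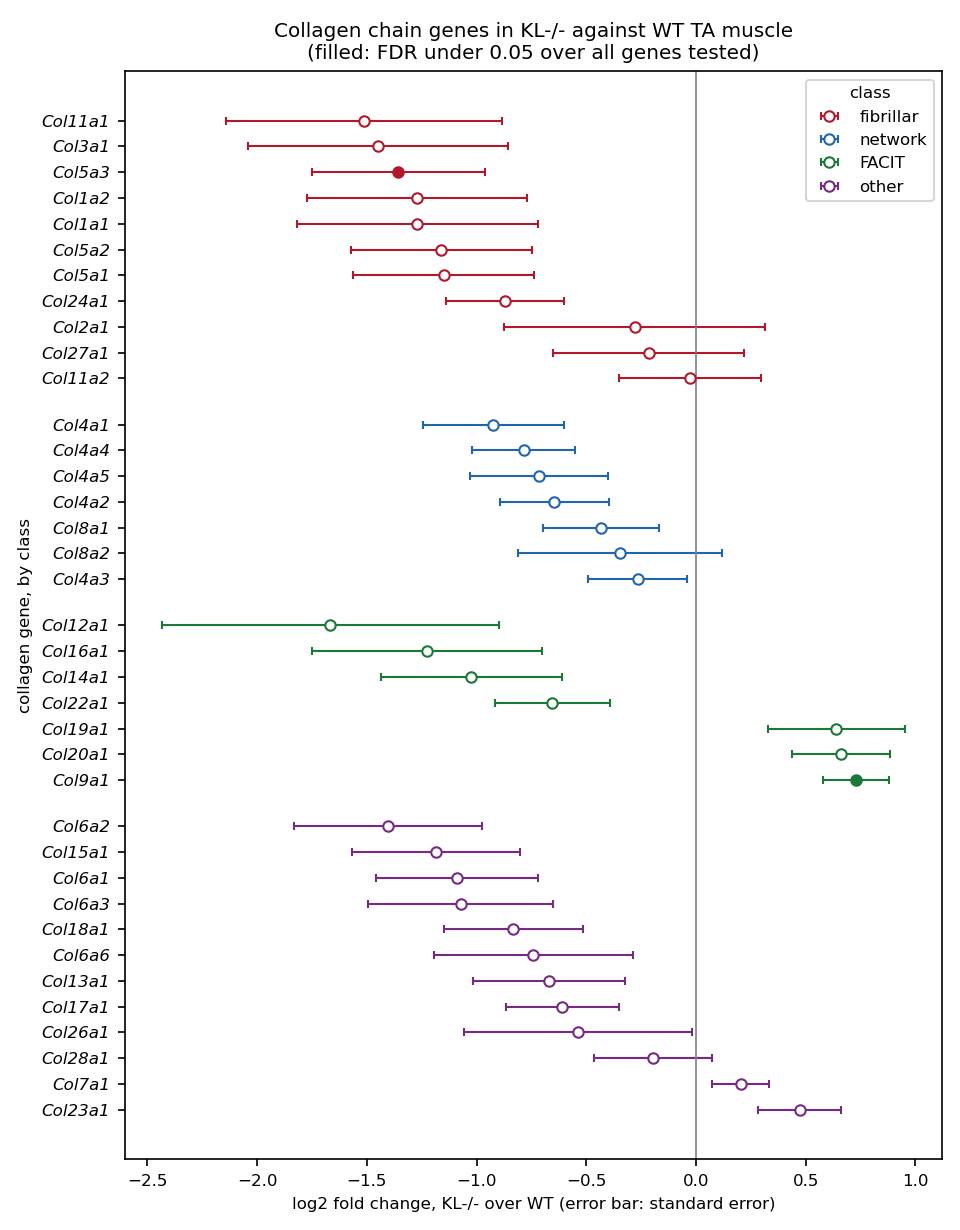
Log2 fold change of each of the 37 collagen genes, KL-/- over WT (horizontal axis), with its standard error as the bar, grouped by class on the vertical axis. Filled points mark the 2 genes with an FDR under 0.05, *Col5a3* at −1.36 and *Col9a1* at 0.73, and 32 of the 37 points lie below 0.

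By class, the 11 fibrillar genes had a median log2 fold change of −1.16 and a range from −1.51 to −0.03, with 11 of 11 below 0, 8 with an unadjusted p under 0.05 and 1 called lower. The 7 network genes had a median of −0.64 and a range from −0.92 to −0.27, with 7 of 7 below 0. None of these 7 was called by edgeR's quasi-likelihood test, and 4 of them had an unadjusted p under 0.05. DESeq2, which called 9.11% of all genes lower, called 2 of them lower, *Col4a2* and *Col4a4*. Among the 7 FACIT genes 4 lay below 0 and 3 above, with a median of −0.65, which was −0.25 without WT replicate 2, and a range from −1.67 to 0.73. The quasi-likelihood test called 1 of them higher, *Col9a1*. DESeq2, which called 1313 of the 12551 genes higher, called 2 of them higher, *Col9a1* and *Col20a1*. The 12 other genes had a median of −0.71 and a range from −1.41 to 0.47, with 10 of 12 below 0. None of these 12 was called by edgeR's quasi-likelihood test, and 6 of them had an unadjusted p under 0.05 in the lower direction. DESeq2 called 3 of them lower, *Col6a2*, *Col15a1* and *Col18a1*, against 9.11% of all genes.

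The libraries ranked alike across many of the genes. WT replicate 2 or 3 was the highest of the 8 libraries for 31 of the 37 genes, and WT replicate 4 was the lowest WT library for 29. In the KL-/- group, replicate 2 was highest for 26 genes and replicate 3 lowest for 19. Relative to each gene's mean over the 8 libraries, the median log2 CPM of the 37 genes was 0.07, 0.73, 0.94 and −0.45 in WT replicates 1 to 4 and −0.21, 0.12, −0.66 and −0.52 in KL-/- replicates 1 to 4. WT replicates 2 and 3 were both above every KL-/- library for 25 genes, whereas WT replicates 1 and 4 were both above every KL-/- library for 2. WT replicate 4 lay below KL-/- replicate 2 for 32 genes. These counts of library order were not made over all genes, so the order is not shown to be particular to collagen genes. The genotypes did not overlap for 1 gene that was lower in KL-/- muscle, *Col4a4*, where 9.47% of all genes were so separated, and for 1 that was higher, *Col9a1*, where 10.2% were.

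**Figure D2:**
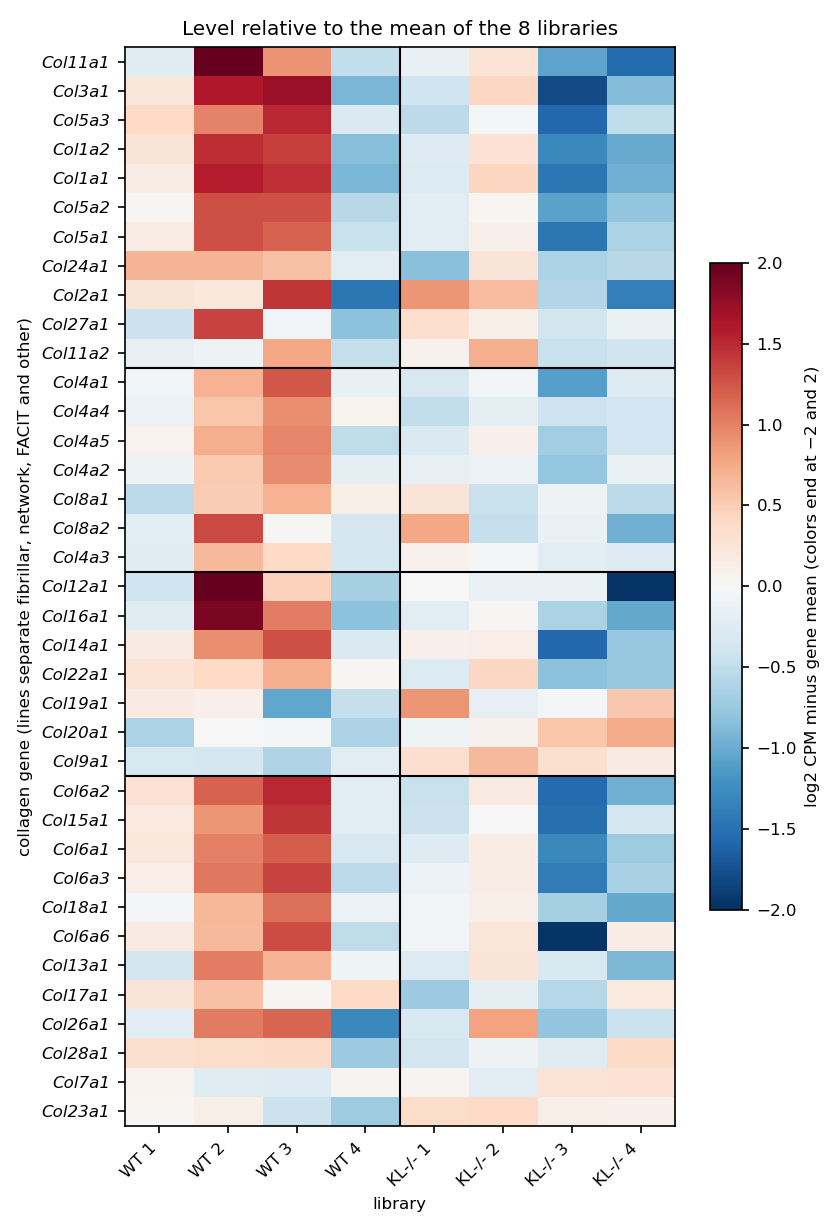
Log2 CPM of each collagen gene minus its mean over the 8 libraries (colour, ending at −2 and 2), with genes in rows by class and libraries in columns. WT replicates 2 and 3 are red in most rows and KL-/- replicate 3 blue in most, while WT replicate 4 lies below KL-/- replicate 2 in 32 of the 37 rows.

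As a share of all counts on genes, the 37 collagen genes together took 0.259%, 0.565%, 0.627% and 0.171% in WT replicates 1 to 4 and 0.187%, 0.254%, 0.0945% and 0.144% in KL-/- replicates 1 to 4. WT replicate 4 thus held a lower share than KL-/- replicates 1 and 2, and KL-/- replicate 3 held the lowest. The mean was 0.406% ± 0.224 in WT and 0.170% ± 0.0675 in KL-/- libraries (SD, n = 4), a difference of −0.236 percentage points that was close to the WT SD and was given no test. The difference ranged from −0.314 to −0.162 points when each library was left out in turn. Within the collagen counts, fibrillar chains made up 56.6% ± 9.38 in WT and 50.6% ± 7.02 in KL-/- libraries, and network chains 24.0% ± 6.90 and 29.2% ± 6.07. FACIT chains made up 3.42% ± 0.874 and 4.19% ± 1.06, and the other chains 15.9% ± 2.20 and 15.9% ± 0.606 (SD, n = 4 each). In a sample of whole muscle, fewer cells of a type and less RNA per cell cannot be told apart.

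**Figure D3:**
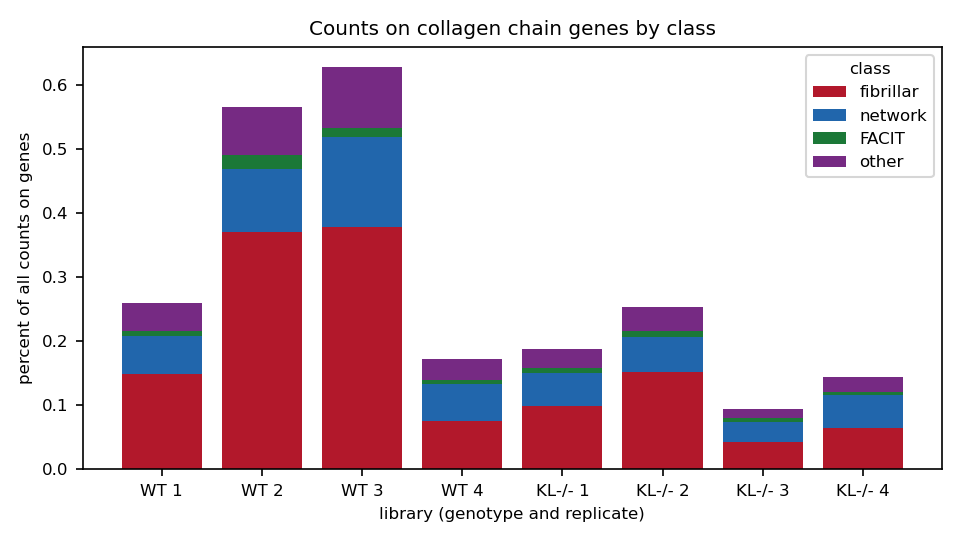
Percent of all counts on genes that fell on collagen genes, stacked by class, in each of the 8 libraries. WT replicates 2 and 3 reach 0.565% and 0.627%, and the other 6 libraries lie between 0.0945% and 0.259%.

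On a scale per kilobase of exon (RPKM, here TMM-normalized CPM per kilobase of the counted exons, averaged over the 8 libraries), the fibrillar chains *Col3a1* at 110, *Col1a1* at 82.3 and *Col1a2* at 81.4 had the highest levels. The basement membrane chains *Col4a1* at 56.7 and *Col4a2* at 42.6 followed, and then the collagen VI chains *Col6a2* at 28.5 and *Col6a1* at 27.4. *Col15a1* had a level of 15.4 RPKM and *Col5a3* 9.86 RPKM, and the lowest level was that of the cartilage collagen gene *Col2a1*, at 0.163 RPKM. In the WT group, 23 of the 37 genes had a mean of at least 5 CPM and 14 a mean under 5 CPM. None of 7 cartilage and bone markers had a row in the counts.

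Collagen I is the main fibril-forming collagen of tendon and muscle connective tissue, and *Col1a1* and *Col1a2* encode its chains. *Col1a1* (chromosome 11, 94936270 to 94951856, mm10) had 329, 879, 820 and 158 CPM in WT replicates 1 to 4 and 245, 400, 110 and 152 CPM in KL-/- replicates 1 to 4. WT replicates 2 and 3 stood above all other libraries, and WT replicate 4 lay below KL-/- replicates 1 and 2. The means were 546 ± 358 CPM in WT and 227 ± 129 CPM in KL-/- (SD, n = 4), with a log2 fold change of −1.27 (standard error, SE, 0.55, FDR = 0.145 by edgeR's quasi-likelihood test). *Col1a2* (chromosome 6, 4505697 to 4541543) had 397, 922, 867 and 183 CPM in WT and 277, 405, 135 and 164 CPM in KL-/- replicates 1 to 4. Its libraries ranked in the same order as those of *Col1a1*, and its log2 fold change was −1.27 (SE 0.50, FDR = 0.117).

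*Col3a1* (chromosome 1, 45311538 to 45349706) encodes the chain of collagen III, which mixes with collagen I in extensible tissue. It had 518, 1348, 1471 and 235 CPM in WT replicates 1 to 4 and 338, 595, 128 and 245 CPM in KL-/- replicates 1 to 4. The highest and lowest libraries differed 6.26-fold within WT and 4.64-fold within KL-/-, and the genotypes overlapped. The log2 fold change was −1.45 (SE 0.59, FDR = 0.126 by edgeR's quasi-likelihood test).

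*Col5a3* (chromosome 9, 20770050 to 20815034), which encodes a chain of collagen V, a regulator of fibril diameter, was the collagen gene called lower. It had 65.4, 98.1, 141 and 40.5 CPM in WT replicates 1 to 4 and 34.6, 48.7, 16.7 and 34.9 CPM in KL-/- replicates 1 to 4. KL-/- replicate 2 lay above WT replicate 4, and the other 3 KL-/- libraries lay below every WT library. It fell from 86.3 ± 43.5 to 33.7 ± 13.1 CPM (SD, n = 4), with a log2 fold change of −1.36 (SE 0.39, FDR = 0.0486). The FDR was 0.0251 without WT replicate 4 and 0.0323 without KL-/- replicate 2. With any of the other 6 libraries left out it was above the threshold, up to 0.128 without WT replicate 3. The 2 other collagen V chains had log2 fold changes of −1.15 for *Col5a1* (FDR = 0.0913) and −1.16 for *Col5a2* (FDR = 0.0880).

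The 5 remaining fibrillar genes had mean WT levels of 0.921 to 14.9 CPM. *Col11a1*, whose collagen nucleates fibrils with collagen V, had 35.2 CPM in WT replicate 2 and 2.45 to 13.2 CPM in the other 7 libraries. Its log2 fold change of −1.51 (FDR = 0.131 by edgeR's quasi-likelihood test) was −0.65 with WT replicate 2 left out. *Col24a1* had 5.76, 5.78, 5.41 and 3.12 CPM in WT replicates 1 to 4 and 2.02 to 4.29 CPM in KL-/- libraries, with a log2 fold change of −0.87 (FDR = 0.0602). *Col2a1*, *Col27a1* and *Col11a2* had log2 fold changes of −0.28, −0.22 and −0.03, each smaller than its standard error of 0.59, 0.43 and 0.32.

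**Figure D4:**
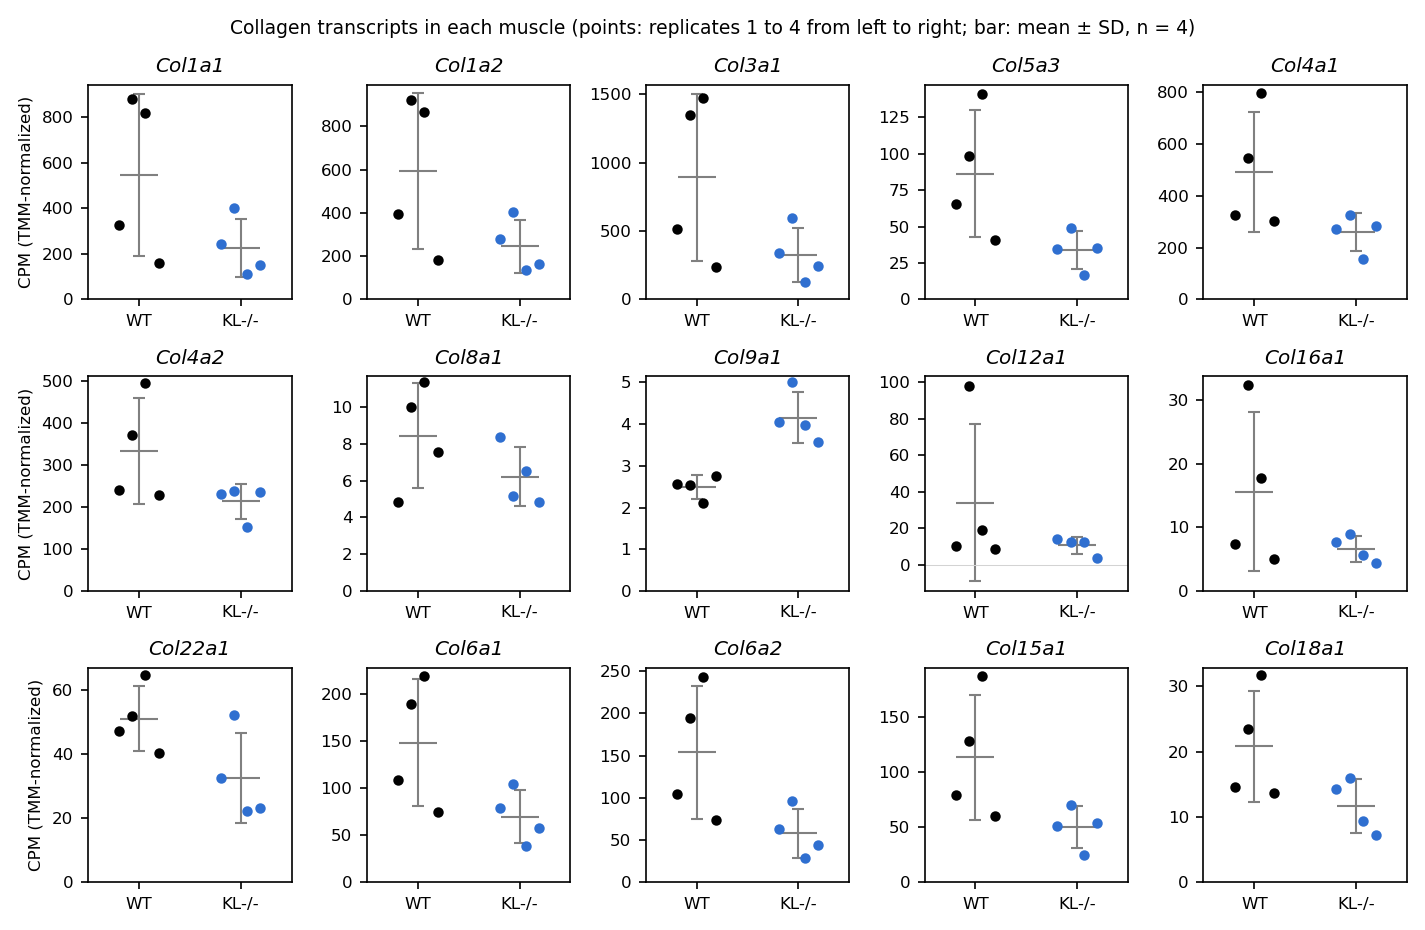
TMM-normalized CPM of 15 collagen genes (vertical axes, linear), with a point for each mouse in order of replicate 1 to 4, WT in black and KL-/- in blue, and the mean ± SD (n = 4) in grey. In 14 of the 15 genes the ranges of the genotypes overlap, and in *Col9a1* every KL-/- point lies above every WT point.

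*Col4a1* and *Col4a2* encode the chains of the collagen IV found in most basement membranes, and lie head to head on chromosome 8 with 2 bases between the counted gene models. *Col4a1* (11198423 to 11312826) had 324, 543, 796 and 303 CPM in WT and 271, 325, 157 and 283 CPM in KL-/- replicates 1 to 4. *Col4a2* (11312829 to 11449287) had 239, 372, 495 and 229 CPM in WT and 230, 237, 152 and 235 CPM in KL-/- replicates 1 to 4. In each gene WT replicates 2 and 3 were the highest libraries and KL-/- replicate 3 the lowest, and 3 of the 4 KL-/- values of *Col4a2* lay between 230 and 237 CPM. The log2 fold changes were −0.92 for *Col4a1* (SE 0.32, FDR = 0.0823 by edgeR's quasi-likelihood test) and −0.64 for *Col4a2* (SE 0.25, FDR = 0.109), and they were −0.59 and −0.39 without WT replicate 3.

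The shared promoter region of this pair is shown because a single short stretch of DNA serves both genes. The windows are those of RefSeq on GRCm38.p6, 250 bases before and 50 bases after a start site, and the start sites of *Col4a1* and *Col4a2* were 21 bases apart, so that the windows share 78 bases. *Col4a1* is read from the minus strand of chr8:11312777-11313076 and *Col4a2* from the plus strand of chr8:11312555-11312854. Capitals mark, on either strand, a CCAAT box (these letters, which read ATTGG on the opposite strand), a TATA box (the letters TATAAA, which read TTTATA on the opposite strand) and a GC box (the letters GGGCGG, which read CCGCCC on the opposite strand), and none of these strings contains another.
Col4a1: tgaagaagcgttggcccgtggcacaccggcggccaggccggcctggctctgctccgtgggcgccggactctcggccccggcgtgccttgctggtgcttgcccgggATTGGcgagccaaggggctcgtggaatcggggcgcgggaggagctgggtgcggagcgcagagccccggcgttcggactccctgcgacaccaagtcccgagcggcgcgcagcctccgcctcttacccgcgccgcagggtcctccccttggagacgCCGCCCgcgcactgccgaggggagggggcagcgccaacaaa
Col4a2: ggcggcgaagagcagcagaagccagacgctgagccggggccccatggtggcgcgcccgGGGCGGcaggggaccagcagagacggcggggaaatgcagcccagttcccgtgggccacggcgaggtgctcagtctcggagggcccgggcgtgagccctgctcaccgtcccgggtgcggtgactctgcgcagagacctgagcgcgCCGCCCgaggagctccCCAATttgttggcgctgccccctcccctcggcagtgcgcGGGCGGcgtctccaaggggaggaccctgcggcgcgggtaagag

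A GC box and a CCAAT box were found in each of these windows, and a TATA box in neither. A RefSeq window was found for 29 of the 37 collagen genes, with 32 windows in all. The GC box occurred in 56.2% of these 32 windows against 35.7% of all 32851 windows, the CCAAT box in 34.4% against 37.4%, and the TATA box in 12.5% against 13.6%. A match is a description of the letters and not a site shown to be bound. The other windows shown belong to the genes that were called, *Col5a3* (minus strand of chr9:20815018-20815317) and *Col9a1* (plus strand of chr1:24177360-24177659, at the 5′ end of the counted gene model, and of chr1:24194953-24195252, at a start site inside the gene), and to *Col1a2* (plus strand of chr6:4505368-4505667) as a gene of collagen I.
Col5a3: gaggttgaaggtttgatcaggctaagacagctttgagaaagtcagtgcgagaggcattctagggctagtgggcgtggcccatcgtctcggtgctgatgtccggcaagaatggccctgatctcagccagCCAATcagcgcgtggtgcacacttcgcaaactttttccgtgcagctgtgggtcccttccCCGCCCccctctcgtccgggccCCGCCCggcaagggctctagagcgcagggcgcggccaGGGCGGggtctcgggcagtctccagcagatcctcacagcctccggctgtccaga
Col9a1, outer start: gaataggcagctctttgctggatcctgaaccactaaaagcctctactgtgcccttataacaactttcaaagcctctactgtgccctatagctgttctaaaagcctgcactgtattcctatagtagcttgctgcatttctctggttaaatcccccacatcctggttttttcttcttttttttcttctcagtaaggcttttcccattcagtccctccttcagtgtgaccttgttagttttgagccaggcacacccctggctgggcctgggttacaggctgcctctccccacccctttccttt
Col9a1, inner start: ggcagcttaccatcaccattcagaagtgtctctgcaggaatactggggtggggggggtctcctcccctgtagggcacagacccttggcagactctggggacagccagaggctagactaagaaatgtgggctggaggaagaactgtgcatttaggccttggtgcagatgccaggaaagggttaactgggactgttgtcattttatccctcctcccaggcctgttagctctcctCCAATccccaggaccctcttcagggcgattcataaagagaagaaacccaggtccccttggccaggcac
Col1a2: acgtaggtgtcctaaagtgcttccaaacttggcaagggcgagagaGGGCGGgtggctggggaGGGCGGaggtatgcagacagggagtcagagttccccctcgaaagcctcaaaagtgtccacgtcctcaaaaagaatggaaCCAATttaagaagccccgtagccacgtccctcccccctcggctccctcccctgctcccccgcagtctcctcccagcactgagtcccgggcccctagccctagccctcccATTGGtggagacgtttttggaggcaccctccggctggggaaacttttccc

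The *Col5a3* window held 3 GC boxes and 1 CCAAT box. The outer *Col9a1* window held none of the motifs, and the inner window held 1 CCAAT box. The counts are per gene and do not show which of these start sites was used.

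The other collagen IV genes were expressed at mean WT levels of 3.61 to 4.42 CPM. *Col4a4* had 2.49, 3.98, 5.15 and 2.83 CPM in WT replicates 1 to 4 and 1.92, 2.39, 2.03 and 2.07 CPM in KL-/- replicates 1 to 4. Every KL-/- value lay below every WT value, by a gap between 2.39 and 2.49 CPM, and the log2 fold change was −0.78 (SE 0.24, FDR = 0.0541 by edgeR's quasi-likelihood test). This gene was singled out after its values were seen. *Col4a3*, which lies head to head with *Col4a4* on chromosome 1 with 71 bases between the gene models, had 3.08 to 6.15 CPM in WT and 3.28 to 4.15 CPM in KL-/- libraries and a log2 fold change of −0.27 (SE 0.23, FDR = 0.444). *Col4a5*, on the X chromosome, had a log2 fold change of −0.72 (FDR = 0.151). *Col8a1*, a short-chain collagen of vessel walls and the most abundant of the remaining network genes per kilobase, had 4.86, 9.99, 11.4 and 7.57 CPM in WT and 8.37, 5.15, 6.51 and 4.86 CPM in KL-/- replicates 1 to 4, with a log2 fold change of −0.43 (SE 0.26, FDR = 0.282) that was −0.25 without WT replicate 3.

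*Col9a1* (chromosome 1, 24177610 to 24252738) encodes a FACIT chain known from the surface of cartilage fibrils, and it was the collagen gene called higher. It had 2.57, 2.54, 2.10 and 2.76 CPM in WT replicates 1 to 4 and 4.04, 5.01, 3.98 and 3.58 CPM in KL-/- replicates 1 to 4, which rest on 55 to 77 and 95 to 116 counts per library. The genotypes did not overlap. It rose from 2.49 ± 0.282 to 4.15 ± 0.606 CPM (SD, n = 4), with a log2 fold change of 0.73 (SE 0.15, FDR = 0.0155 by edgeR's quasi-likelihood test). The FDR stayed between 0.0159 and 0.0464 with each library left out in turn. Of 6 markers of Schwann cells 4 were called higher, against 7.35% of all genes, with sums of 35.9 to 65.1 CPM in WT and 71.9 to 94.6 CPM in KL-/- libraries. Of 8 muscle fiber markers 1 was called higher, and their sums, 135543 to 157389 and 167221 to 216152 CPM, did not overlap either. The part of either cell type in the *Col9a1* result was not tested.

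Both other FACIT genes with a fold change above 0 also had low counts. *Col20a1* had 3.23, 4.995, 4.92 and 3.26 CPM in WT and 4.74, 5.34, 7.38 and 8.37 CPM in KL-/- replicates 1 to 4, with a log2 fold change of 0.66 (SE 0.22, FDR = 0.0775). *Col19a1*, whose gene model ends 4944 bases from that of *Col9a1*, had 0.839 to 1.92 CPM in WT and 1.53 to 3.17 CPM in KL-/- libraries, with a log2 fold change of 0.64 (SE 0.31, FDR = 0.188 by edgeR's quasi-likelihood test). In each of these genes the genotypes overlapped.

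The 4 FACIT genes with a fold change below 0 encode collagens of tendon, fibril surfaces and the myotendinous junction. *Col12a1*, a collagen of tendon and of fibrils under load, had 10.5, 97.9, 18.9 and 8.68 CPM in WT and 13.9, 12.6, 12.5 and 3.54 CPM in KL-/- replicates 1 to 4. WT replicate 2 alone stood far above the other libraries. The log2 fold change of −1.67 (SE 0.77, FDR = 0.167) was −0.25 with WT replicate 2 left out. *Col16a1*, found at fibril surfaces and near basement membranes, had 7.39, 32.3, 17.8 and 4.95 CPM in WT and 7.60, 8.92, 5.68 and 4.33 CPM in KL-/- replicates 1 to 4. Its log2 fold change of −1.23 (SE 0.52, FDR = 0.140) was −0.60 with WT replicate 2 left out. *Col22a1*, a collagen of the myotendinous junction, had 47.2, 51.7, 64.5 and 40.3 CPM in WT and 32.4, 52.1, 22.1 and 23.0 CPM in KL-/- replicates 1 to 4. KL-/- replicate 2 lay above 3 of the 4 WT libraries, and the other 3 KL-/- libraries lay below every WT library. The log2 fold change of *Col22a1* was −0.65 (SE 0.26, FDR = 0.120), and without KL-/- replicate 2 it was −0.97 with an FDR of 0.00929. *Col14a1*, a FACIT chain of mature fibrils, had 8.21 to 24.7 CPM in WT and 3.40 to 10.97 CPM in KL-/- libraries and a log2 fold change of −1.02 (FDR = 0.123).

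*Col6a1*, *Col6a2* and *Col6a3* encode the chains of collagen VI, whose loss in patients causes congenital muscular dystrophy. *Col6a1* (chromosome 10, 76708792 to 76726044) had 109, 190, 219 and 75.3 CPM in WT and 78.8, 104, 38.7 and 57.4 CPM in KL-/- replicates 1 to 4. *Col6a2* (chromosome 10, 76595756 to 76623404) had 105, 195, 244 and 73.4 CPM in WT and 62.9, 96.4, 29.4 and 44.1 CPM in KL-/- replicates 1 to 4. In each gene WT replicates 1, 2 and 3 lay above every KL-/- library, and WT replicate 4 lay among the KL-/- libraries. The log2 fold changes were −1.09 for *Col6a1* (SE 0.37, FDR = 0.0772 by edgeR's quasi-likelihood test), −1.41 for *Col6a2* (SE 0.43, FDR = 0.0568) and −1.07 for *Col6a3* (SE 0.42, FDR = 0.116). *Col6a1* and *Col6a2* passed the threshold in 2 of the 8 fits that left a library out, those without WT replicate 4 and without KL-/- replicate 2. *Col6a6* had a log2 fold change of −0.74 (FDR = 0.284).

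*Col15a1* and *Col18a1* encode the multiplexin collagens of basement membrane zones. *Col15a1* (chromosome 4, 47208012 to 47313165) had 79.3, 128, 187 and 59.9 CPM in WT and 51.3, 70.1, 24.4 and 54.2 CPM in KL-/- replicates 1 to 4. KL-/- replicate 2 was the only KL-/- library above WT replicate 4, and the log2 fold change was −1.18 (SE 0.38, FDR = 0.0671). *Col18a1* (chromosome 10, 77052179 to 77166530) had 14.5, 23.5, 31.6 and 13.6 CPM in WT and 14.3, 16.03, 9.33 and 7.24 CPM in KL-/- replicates 1 to 4, and its log2 fold change was −0.83 (SE 0.32, FDR = 0.106 by edgeR's quasi-likelihood test), or −0.55 without WT replicate 3.

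The remaining genes of this class included anchoring, membrane-spanning and little studied collagens. *Col7a1*, the anchoring fibril collagen, had 14.8 to 18.6 CPM in WT and 15.2 to 21.7 CPM in KL-/- libraries, and a log2 fold change of 0.20 (SE 0.13, FDR = 0.309). Among the membrane-spanning collagens, *Col13a1*, which is known from the neuromuscular junction, had 1.14 to 3.01 CPM in WT and 0.792 to 1.77 CPM in KL-/- libraries, with a log2 fold change of −0.67 (FDR = 0.211). The membrane-spanning *Col17a1* and *Col23a1* had log2 fold changes of −0.61 (FDR = 0.137) and 0.47 (FDR = 0.121). *Col26a1* and *Col28a1* had log2 fold changes of −0.54 and −0.19, with FDRs of 0.507 and 0.652 in edgeR's quasi-likelihood test.

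The 37 genes lay on 15 chromosomes, and 5 neighbouring pairs were under 100000 bases apart. Besides the head-to-head pairs of collagen IV these were *Col9a1* and *Col19a1*, *Col3a1* and *Col5a2* with 24624 bases between them, and *Col6a2* and *Col6a1* with 85387 bases between them. In each of the 5 pairs the log2 fold changes had the same sign, which was positive in *Col9a1* and *Col19a1* and negative in the others. With 32 of the 37 genes below 0, most pairs of collagen genes share a sign, and a link between neighbours was not tested.

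Ratios between chains within a library do not depend on the scaling between libraries. Tests by exact permutation (two-sided, 70 relabelings) were made for 6, with p-values adjusted by Benjamini-Hochberg over the 6. The 6 were chosen with earlier results of these data known, which the adjustment does not cover. The log2 ratio of *Col6a1* to *Col6a2* counts per kilobase was −0.03, −0.13, −0.24 and −0.05 in WT replicates 1 to 4 and 0.23, 0.02, 0.31 and 0.29 in KL-/- replicates 1 to 4. Every KL-/- value lay above every WT value, so that *Col6a2* was lower relative to *Col6a1* in KL-/- muscle. The difference was 0.33 (exact permutation p = 0.0286, the smallest that 4 against 4 allows, adjusted p = 0.171), and it did not pass after adjustment.

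The *Col1a1* to *Col1a2* ratio lay between −0.17 and 0.11 in the 8 libraries and differed by 0.006 between the genotype means (exact permutation p = 0.943, adjusted p = 0.943), while the CPM of *Col1a1* varied from 110 to 879. The *Col4a1* to *Col4a2* ratio averaged 0.48 ± 0.13 in WT and 0.21 ± 0.17 in KL-/- libraries (SD, n = 4), a difference of −0.26 (exact permutation p = 0.0857, adjusted p = 0.257). The *Col3a1* to *Col1a1* ratio differed by −0.18 (exact permutation p = 0.171, adjusted p = 0.343). Those of *Col15a1* to *Col18a1* and *Col1a1* to *Col4a1* differed by −0.33 (exact permutation p = 0.4, adjusted p = 0.6) and −0.27 (exact permutation p = 0.571, adjusted p = 0.686). The ratio of *Col1a1* to *Col4a1*, a fibrillar against a basement membrane chain, spanned −0.45 to 1.19 in WT and −0.40 to 0.79 in KL-/- libraries.

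**Figure D5:**
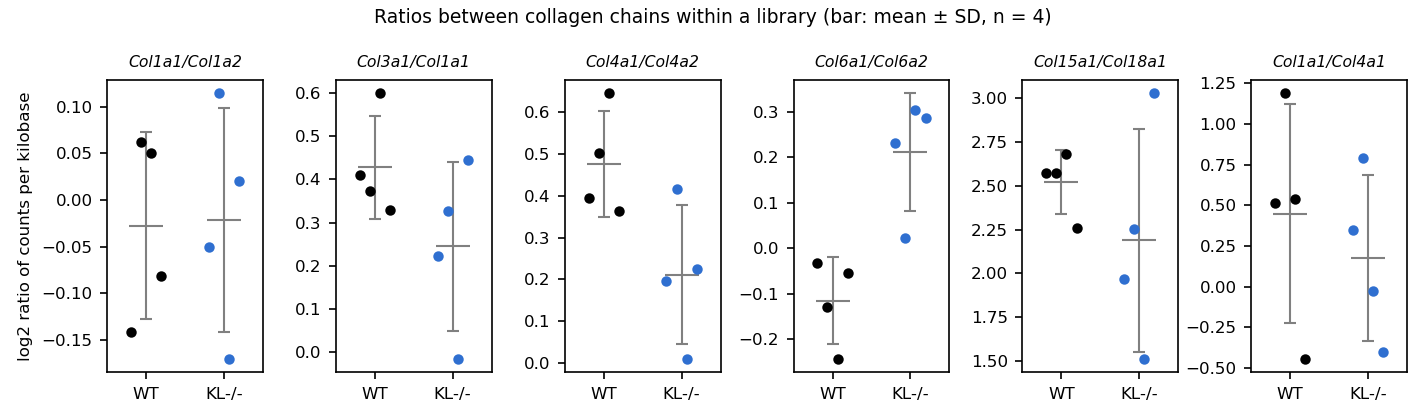
Log2 ratio of counts per kilobase of 6 pairs of collagen genes in each library (vertical axes, which do not start at 0 and differ between panels), with WT in black, KL-/- in blue and the mean ± SD (n = 4) in grey. The genotypes are separate for *Col6a1* over *Col6a2*, where the difference is 0.33, and overlap in the other 5 panels.

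Lists were read of genes assigned to the modification, export, cleavage, crosslinking, binding or degradation of collagen. Of 47 measured genes of 54 listed, 6 fell and 1 rose at an FDR under 0.05 in edgeR's quasi-likelihood test, where 6.67% of all genes were lower and 7.35% higher. Of the 47, 36 had a log2 fold change below 0, against 52.4% of all genes, and the median was −0.36, against −0.016 over all genes. Among 14 prolyl and lysyl hydroxylases and their partners, *P4ha1*, a catalytic subunit of the prolyl hydroxylase that stabilizes the triple helix, fell from 42.5 ± 3.48 to 26.6 ± 3.64 CPM (SD, n = 4), with a log2 fold change of −0.68 (FDR = 0.00598), and the genotypes did not overlap. Among 10 genes listed as chaperones and export factors, *Sec24d*, a coat subunit of the vesicles that carry procollagen, fell with a log2 fold change of −0.76 (FDR = 0.0261). *Tango2* rose with a log2 fold change of 0.51 (FDR = 0.0328). It counts here only by its place on the list, and a part in collagen export was not tested. *Serpinh1*, the collagen-specific chaperone, had a log2 fold change of −0.87 (FDR = 0.0566).

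Of the 7 procollagen proteinases and their enhancers, *Adamts14*, which removes amino-terminal propeptides, fell by 1.08 on the log2 scale (FDR = 0.0479 by edgeR's quasi-likelihood test). Of the 5 lysyl oxidases that crosslink fibrils, *Loxl1* fell by 0.88 (FDR = 0.0437), and *Lox* had a log2 fold change of 0.48 (FDR = 0.281). Of 7 collagen receptors, *Ddr2*, a receptor kinase for fibrillar collagen, fell by 0.77 (FDR = 0.0489), and *Itga11*, an integrin subunit for collagen on fibroblasts, fell by 1.61 (FDR = 0.0336). None of 4 collagenases and gelatinases was called by edgeR's quasi-likelihood test, and 4 of 4 had a log2 fold change below 0, with a median of −1.17.

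Markers of the cell types that whole muscle holds were read from the same test, in which 6.67% of all genes were lower and 7.35% higher. Of 11 measured markers of fibroblasts and fibro-adipogenic progenitors, 5 were called lower (*Dpp4*, *Dpt*, *Lum*, *Dcn* and *Gsn*), and their sum was 1068 to 1597 CPM in WT and 508 to 1028 CPM in KL-/- libraries, highest in WT replicate 3 and lowest in KL-/- replicate 3, without overlap. WT replicates 3, 2 and 1, in that order, were highest both in this sum and in collagen share of counts, and KL-/- replicates 4 and 3 were lowest in both. WT replicate 4 lay above KL-/- replicates 1 and 2 in this sum and below them in collagen share. The sum uses TMM-normalized CPM and the share uses library totals. Of 10 tendon markers, 3 were called lower (*Fmod*, *Kera* and *Thbs4*), and their sum was 204 to 275 CPM in WT and 110 to 186 CPM in KL-/- libraries. *Scx* and *Egr1* had log2 fold changes of 0.16 and 1.71, and *Egr1*, also an immediate early gene, averaged 11.2 ± 5.18 CPM in WT libraries and 36.4 ± 60.0 CPM in KL-/- libraries (SD, n = 4). Without *Egr1*, which was set aside after its values were seen, the sum of the other 9 was 197 to 259 CPM in WT and 59.9 to 154 CPM in KL-/- libraries. Tendon markers were thus detected in every library, and the amount of tendon taken with each muscle is not given in the sources used here. Of 8 endothelial markers 1 was called lower, *Kdr*, with sums of 499 to 750 and 458 to 512 CPM. Of 8 pericyte and smooth muscle markers none was called lower and 1 was called higher, *Tagln*, with sums of 675 to 876 and 742 to 834 CPM.

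Of 8 macrophage markers 2 were called lower, *Adgre1* and *Itgam*, against 6.67% of all genes. The sums were 38.9 to 89.9 CPM in WT and 28.2 to 56.0 CPM in KL-/- libraries, and *Mrc1* was the 1 marker above 0, with a log2 fold change of 0.16. None of 3 adipocyte markers was called by edgeR's quasi-likelihood test, and their sums were 1.30 to 6.74 and 1.45 to 23.7 CPM. Of 8 muscle fiber markers 1 was called higher, *Actn3*, against 7.35% of all genes. None of the listed markers that were measured was at 0 in a genotype mean, and the part of these cell types in the collagen values was not tested.

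According to GENCODE M21, 10 of the 37 genes share exon bases with another annotated gene, most on the opposite strand, and *Col4a1* and *Col4a2* share 22 bases. None shares exon bases with another counted gene. Only 5 of the 37 counted gene models have the start and end given by GENCODE M21. The overlaps are those of that annotation and may not hold for the counted models. Whether the counting used strand is not given in the sources used here, so that reads from such overlaps cannot be assigned to a strand.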

How the data were processed

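The values used were raw gene counts deposited by the authors, made by aligning reads to mm10 with STAR, removing low-quality alignments and counting with featureCounts, and they are not normalized. The deposited table also gives each counted gene's position and exon length, an other unit (bases) used for levels per kilobase. The annotation release and the strand setting of the counting are not given in the sources used here. Genotypes and replicate numbers came from the labels. The collagen genes, the 15 lists of other genes and the 6 ratios were chosen with earlier results of these data known.

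All 12551 genes passed edgeR's filter on low counts. The 8 libraries were fitted in R 4.3.3 with edgeR 4.0.16 (TMM factors, quasi-likelihood test in its current form, genotype as the only term), with Benjamini-Hochberg adjustment over all genes and an FDR threshold of 0.05. Standard errors were taken from the test statistic. Libraries of 20860262 to 29273758 counts gave a floor, taken as 3 counts, between 0.102 and 0.144 CPM, which covers counting error only. No 2 libraries of a genotype were duplicates (chi-square per gene of at least 9.92, where sampling noise gives about 1). Values in every library are given for collagen genes past the FDR threshold, for the 3 of each class with the highest RPKM and for those in the ratios. *Col4a4*, *Col20a1* and *Col24a1* were added after their values were seen. Alternatives were RLE factors, library totals, no filter on low counts, a minimum of 10 counts, DESeq2 1.42.0, limma-voom (limma 3.58.1), the likelihood ratio test, the replicate number as a block and each library left out. The edgeR 3 and robust quasi-likelihood tests were added after seeing the data, as was the sum of tendon markers without *Egr1*. Promoter windows are those of RefSeq on GRCm38.p6.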

Additional observations from a re-analysis of the deposited data

Results flagged for a closer look

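In 6 of the 88 groups of 4 libraries examined (37 genes, 6 ratios and the collagen share of counts in each genotype), the lowest or highest library lay apart from the other 3 by more than Dixon's 95% critical value for 4 samples, and chance alone gives about 1 in 20 groups. In WT muscle, *Col12a1* was highest in replicate 2 at 97.9 CPM (8.68 to 18.9 CPM in the others), and *Col8a2*, a collagen VIII chain, was highest in the same library at 3.28 CPM (1.04 to 1.33 CPM). *Col24a1* and *Col28a1* were lowest in WT replicate 4, at 3.12 CPM (5.41 to 5.78 CPM in the others) and 1.36 CPM (2.82 to 2.94 CPM). In KL-/- muscle, *Col4a2* was lowest in replicate 3 at 152 CPM (230 to 237 CPM in the others), the library with a different batch date, and *Col12a1* was lowest in replicate 4 at 3.54 CPM (12.5 to 13.9 CPM).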

How the results depend on the processing

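The median log2 fold change of the 37 collagen genes kept its sign in every fit, between −0.86 and −0.72 across the other tests, scalings and filters and between −0.94 and −0.56 with each library left out. The numbers called varied. Against 1 lower and 1 higher, there were 7 lower with library totals, where 17.0% of all genes were lower. DESeq2 gave 7 lower and 2 higher (9.11% of all genes lower), and the likelihood ratio test 9 lower and 2 higher (8.76%). There were 0 lower with limma-voom and 0 lower with the robust quasi-likelihood test, where 6.94% and 6.48% of all genes were lower. At an unadjusted p under 0.05 these tests had 15 and 13 collagen genes lower, and the share of all genes is not given. With a library left out there were 0 to 10 lower, where 2.73% to 9.83% of all genes were lower. *Col9a1* was called in 8 of 8 of those fits. Library totals moved the median of all genes from −0.016 to −0.13, with 2131 genes lower and 493 higher (18.8% of the called genes higher, against 52.4%), and leaving out a library gave 343 to 1234 lower and 404 to 1521 higher, against 837 and 922. Signs turned for low genes: *Col27a1* (0.035 with limma-voom, and −0.46 to 0.42 with a library left out, turning without WT replicate 2), *Col8a2* (−0.81 to 0.15, turning without WT replicate 2), *Col2a1* (−0.69 to 0.33, turning without WT replicate 3 and at 0.016 without KL-/- replicate 4) and *Col11a2* (−0.31 to 0.31, turning without WT replicate 3, KL-/- replicate 3 and KL-/- replicate 4). The cause was not tested.

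With a library left out, the difference in the *Col1a1* to *Col1a2* ratio ran from −0.039 to 0.056, turning sign without WT replicates 1 and 4 and KL-/- replicates 2 and 4. That of *Col3a1* to *Col1a1* ran from −0.25 to −0.096 and that of *Col4a1* to *Col4a2* from −0.33 to −0.20, each with an unadjusted exact permutation p of 0.0286 at its largest size, without KL-/- replicate 4 and KL-/- replicate 2. That of *Col6a1* to *Col6a2* ran from 0.28 to 0.39, with an exact permutation p of 0.0571 without any 1 WT library.

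Deviations of same-numbered libraries correlated at −0.174, 0.198, −0.413 and 0.0139, with 2 of the 4 below 0. These 4 values cannot decide whether the replicate numbers pair the mice, and no source used here pairs them. With the replicate block, 0 collagen genes were called lower and 0 higher (16 lower at an unadjusted p under 0.05), with 323 lower and 348 higher over all genes, and sign flips of same-numbered pairs gave 0.33 for *Col6a1* over *Col6a2*, at the smallest exact p that 4 pairs allow, which is above the threshold. At these depths the floor of 3 counts limits only the lowest genes, such as *Col2a1* with 7 counts in 2 libraries.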
